A study of Mus musculus with 6 samples.

Results

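The antiviral interferon-stimulated genes described here are a list of 43 genes, taken by symbol from the deposited gene count table, which writes symbols in capitals (ISG15, IFIT1, OASL2); the mouse spelling is used here. All 43 were found among its 24982 entries. Oas2 and Ifi44 had under 10 counts in every library. The RNA came from stimulated nTreg cells (natural regulatory T cells), CD4+CD25+CD127lo cells sorted from the spleens of 3 KO and 3 WT mice. KO mice carried a floxed Srsf1 gene on both alleles and the dLck.Cre transgene, in which the distal Lck promoter drives Cre in T cells. Srsf1 encodes a splicing factor of the SR family, and WT mice were the controls. All mice were of the B6.129 strain and 8 to 10 weeks old, and all cells had 72 h of stimulation: anti-CD3 and anti-CD28 antibodies, each at 2 µg/ml, with rIL-2 (recombinant interleukin-2) at 10 ng/ml. The source field of the labels names effector CD4 cells, while the titles and the sorting protocol name nTreg cells.

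Interferons are secreted proteins that switch cells into an antiviral state. Type I interferons bind the receptor of Ifnar1 and Ifnar2 and activate the kinases Jak1 and Tyk2, which phosphorylate Stat2. Stat2 and Irf9 are parts of a complex that binds the interferon-stimulated response element (ISRE) in the promoters of target genes. Interferon gamma acts through another receptor, and its target Irf1 binds similar sites. In T cells the same genes also have a basal expression and can be moved by signals from the T cell receptor.

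Total gene counts were 10183626 to 20373649 in KO libraries and 23263741 to 27562046 in WT libraries, so each KO library was the shallower. KO replicate 1 stood apart, with correlations of log2 CPM across genes of 0.906 to 0.930 with the other libraries, against 0.955 to 0.991 among these. Srsf1 itself was at 438, 812 and 787 CPM (counts normalised and scaled to library size) in KO replicates 1, 2 and 3, and at 1214, 1230 and 756 CPM in WT replicates 1, 2 and 3, so the library labelled WT replicate 3 lay below 2 KO libraries. Reads over the whole gene include parts outside a deletion. Foxp3, the factor that defines Treg cells, was present in every library (357 to 464 CPM in KO, 104 to 160 CPM in WT). The 8 Treg markers listed summed to 4971 to 8581 CPM in KO and 5190 to 8365 CPM in WT, mostly from Il2ra. Of these 8, 4 were higher in KO without overlap, Foxp3 among them, and 4 overlapped between the groups. Over all 11772 genes tested, 7.48% were higher and 8.18% were lower in KO without overlap. Other marker sums differed without overlap for CD8 T cells, for T cells and CD4 T cells, and for macrophages and monocytes. The sums for B cells, natural killer cells, and conventional and plasmacytoid dendritic cells overlapped between the groups. Nkg7 made up most of the natural killer sum and Irf8 most of the plasmacytoid dendritic one. Of 4 natural killer markers tested, Klrb1c and Klrb1b were higher in KO without overlap and 2 overlapped. Of 2 B cell markers tested, Blk was higher without overlap and Cd79b overlapped. Klrb1c, Klrb1b and Blk had 60 counts at most in any library. Summed markers of CD8 T cells were at 97.2 to 128 CPM in KO and 235 to 334 CPM in WT, with Cd8a and Cd8b1 lower and Eomes and Klrk1 overlapping between the groups. Markers of T cells and CD4 T cells summed to 1236 to 1485 CPM in KO and 770 to 881 CPM in WT. Those of macrophages and monocytes summed to 10.3 to 16.1 CPM in KO and 2.17 to 6.39 CPM in WT, mostly from Cd68 and Fcer1g. Of the 11 macrophage markers found, Csf1r, Lyz2 and C1qa had 0 in each of the 6 libraries. Rpl26, whose ribosomal protein every cell needs, was listed at 0 as well, so a 0 in this table may be a missing value. In the FPKM table Csf1r and C1qa were also at 0, and Lyz2 reached 0.034 FPKM at most. The 7 markers of plasmacytoid dendritic cells, which hold the member Bst2, summed to 311 to 568 CPM in KO and 287 to 432 CPM in WT, and their Siglech had 1 count at most in any library. The part of these markers in the results below was not tested, and in bulk RNA fewer cells of a type and less RNA per cell cannot be told apart.

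The level of the 43 genes spanned over 4 orders of magnitude on a scale that corrects for transcript length (FPKM, fragments scaled to transcript length and depth). In KO libraries 17 genes averaged over 10 FPKM, 12 were between 1 and 10 FPKM, and 14 were under 1 FPKM. WT libraries had 15, 13 and 15 genes in these ranges. Ly6e, a membrane-anchored surface protein that restricts entry of some viruses, led in both groups with 223 ± 100.3 FPKM in KO and 127 ± 10.7 FPKM in WT (mean ± SD, n = 3 each). The 5 most abundant genes took 62.4% of the summed FPKM of the list in KO and 60.5% in WT. They included Samhd1, Slfn2 and Irf1 in both groups. Isg15, the ubiquitin-like protein often used as a sign of an interferon response, averaged only 3.97 ± 2.64 FPKM in KO and 2.17 ± 0.338 FPKM in WT. Rsad2, Oas2 and Ifi44 held the lowest ranks, with no group mean over 0.04 FPKM. Neighbours in this order often overlapped: in WT, Samhd1 at 87.7 ± 44.0 FPKM and Slfn2 at 83.2 ± 43.6 FPKM did not differ beyond their spread.

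**Figure D1:**
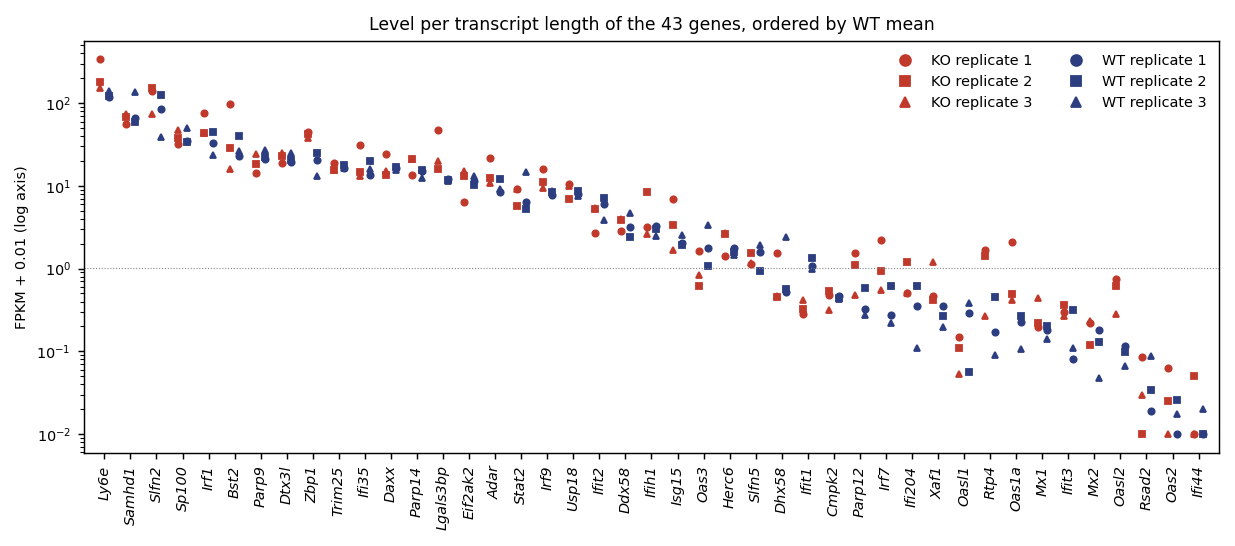
FPKM + 0.01 on a log axis for each of the 43 genes in each library, KO (red, left) and WT (blue, right), ordered by WT mean. The dotted line marks 1 FPKM. Ly6e stands highest in both groups and Rsad2, Oas2 and Ifi44 lowest.

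Of the 43 genes, 37 passed the filter on low counts and were tested. None passed the threshold in edgeR's quasi-likelihood test across all genes (lowest adjusted p = 0.331), where 0.017% of the 11772 genes tested passed. The CD8 T cell marker Cd8b1 was 1 of the 2 genes that passed (log2 fold change -2.68, edgeR adjusted p = 0.0166). At an unadjusted p under 0.05, 9 of the 37 were higher and 1 was lower in KO, against 4.75% and 2.76% of all genes tested (7.51% in both directions together). DESeq2, an alternative, called 3 of the 40 members to which it gave an adjusted p: Oasl2 (adjusted p = 0.0138) and Zbp1 (0.0339) rose in KO, and Ifit1 (0.0209) fell. It called 0.977% of all genes that had an adjusted p, 0.697% higher and 0.28% lower. KO and WT libraries did not overlap for 8 genes higher in KO, Oasl2, Zbp1, Lgals3bp, Oas1a, Irf7, Ly6e, Xaf1 and Irf9, and for 1 lower, Ifit1. Over all genes tested, 7.48% were higher without overlap, 8.18% were lower without overlap, and 15.7% were either.

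The log2 fold changes of the 37 genes (KO over WT) had a median of +0.42, beside +0.02 over all genes tested, and 27 were above 0 (73.0%, beside 51.6%). Oas1a, Oasl2 and Rtp4 reached the cutoff of the filter (0.458 CPM) in at most 1 WT library, so they were tested because of their KO levels. They are 3 of the 9 genes higher at an unadjusted p under 0.05, and 6 of the other 34 genes were. Oas1a and Oasl2 are also among the 8 genes higher in KO without overlap. Of the 34 genes left without these 3, 6 were higher without overlap, beside 7.48% of all genes tested. With a minimum of 1 CPM in 3 libraries, 22 of the 32 genes left were above 0 and the median was +0.17. Each KO library had a similar number of genes above the whole WT range: 18, 18 and 17 of the 37 in KO replicates 1, 2 and 3, beside 41.5%, 24.8% and 25.0% of all genes tested. Below the WT range lay 8, 6 and 7 of the 37, beside 39.3%, 30.2% and 27.7% of all genes. The genes themselves differed by library. KO replicate 1 held the highest value for 14 of the 37 and the library labelled WT replicate 3 for 7, among them Stat2, Samhd1, Oas3 and Dhx58. These shares of 37.8% and 18.9% stood beside 36.6% and 18.5% of all genes tested.

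**Figure D2:**
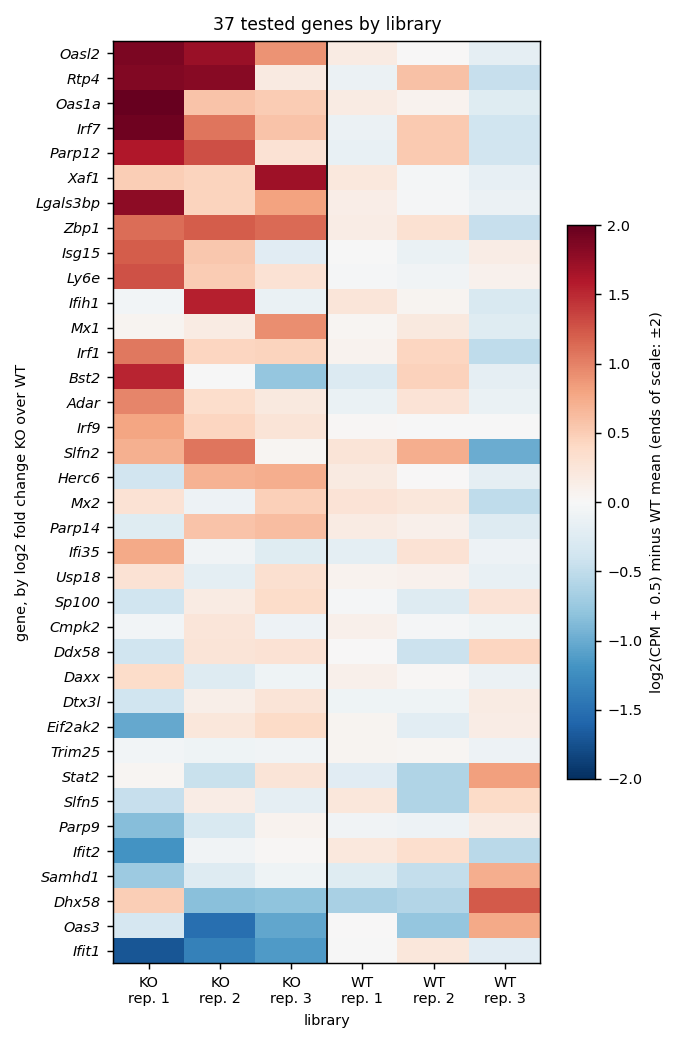
Level of the 37 tested genes in each library, as log2(CPM + 0.5) minus the mean of the WT libraries, ordered by log2 fold change; red is above and blue below the WT mean. Oasl2 and Zbp1 are red and Ifit1 is blue in all 3 KO libraries, while Stat2, Samhd1, Oas3 and Dhx58 are reddest in WT replicate 3.

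Among the 4 signalling members, Irf7 and Irf9 stood higher in KO without overlap, and Stat2 did not. Of all genes tested, 7.48% were higher without overlap. Irf7, the factor that amplifies type I interferon production, was at 4.43, 2.19 and 1.40 CPM in KO replicates 1, 2 and 3, against 0.678, 1.33 and 0.466 CPM in WT replicates 1, 2 and 3. KO replicate 3 lay just above WT replicate 2. Its log2 fold change was +1.71 (SE 0.60, edgeR adjusted p = 0.604), and +1.12 without KO replicate 1. Irf9, the DNA-binding partner of Stat2, was at 44.0, 34.0 and 30.2 CPM in KO and at 25.5, 25.0 and 25.0 CPM in WT. The WT libraries were nearly level and every KO library was above them, by a log2 fold change of +0.52 (SE 0.24, edgeR adjusted p = 0.667).

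Irf1, a transcription factor induced by interferon gamma, was at 182, 119 and 120 CPM in KO replicates 1, 2 and 3, against 92.1, 119 and 61.5 CPM in WT replicates 1, 2 and 3 (log2 fold change +0.63, SE 0.30). It was +0.39 without KO replicate 1 and +0.40 without WT replicate 3. KO replicate 2 and WT replicate 2 were level, so the groups overlapped. Stat2 was at 49.3, 35.1 and 57.0 CPM in KO and at 40.9, 31.3 and 85.2 CPM in WT. The highest value was in the library labelled WT replicate 3, and the log2 fold change of -0.16 (SE 0.39) became +0.37 without it.

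Upstream of these factors, the count table listed nearly all interferon genes other than Ifng at 0. Of 19 interferon ligand genes found, 17 were listed at 0 in all libraries, which may include missing values, and Ifnz had 1 count in 1 library. In the FPKM table the highest value of these 18 was 0.145 FPKM. Ifng, the type II interferon that T cells make, was at 188, 393 and 198 CPM in KO and at 173, 284 and 176 CPM in WT, with overlap. Of 10 receptor and kinase genes found, 9 were tested and none passed edgeR's threshold (0 also at an unadjusted p under 0.05). The receptor chain Ifnar1 was at 68.5, 83.5 and 81.9 CPM in KO and at 92.6, 90.1 and 87.3 CPM in WT, a small difference without overlap (log2 fold change -0.21, SE 0.20). Ifnar2 (+0.02), Ifngr1 (+0.17), Ifngr2 (-0.05), Jak1 (+0.07) and Tyk2 (+0.54) overlapped between the groups.

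Of 10 negative regulators none passed either (0 at an unadjusted p under 0.05). Socs1, an inhibitor of Jak kinases, was at 296 CPM in KO replicate 1 alone, against 45.3 and 53.0 CPM in KO replicates 2 and 3 and 46.7 to 55.0 CPM in WT. Of 15 genes of nucleic acid sensing upstream of interferon, 12 were tested and none passed, with 3 higher and 0 lower at an unadjusted p under 0.05, beside 4.75% and 2.76% of all genes tested. Ikbke, a kinase that activates interferon regulatory factors, was at 53.9, 30.9 and 27.3 CPM in KO and at 16.4, 16.4 and 21.5 CPM in WT, without overlap (log2 fold change +1.05, SE 0.32, edgeR adjusted p = 0.529). Irf5, such a factor, was at 50.01, 24.5 and 14.9 CPM in KO and at 12.5, 17.5 and 13.6 CPM in WT, with overlap and the highest value in KO replicate 1 (+1.04, SE 0.43). Tmem173, which encodes the adaptor STING, was at 301, 233 and 187 CPM in KO and at 154, 173 and 112 CPM in WT, without overlap (log2 fold change +0.72, SE 0.27, edgeR adjusted p = 0.639). Mavs (+0.47), Irf3 (+0.39), Tbk1 (-0.08) and Mb21d1 (+0.08), the DNA sensor cGAS, overlapped.

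**Figure D3:**
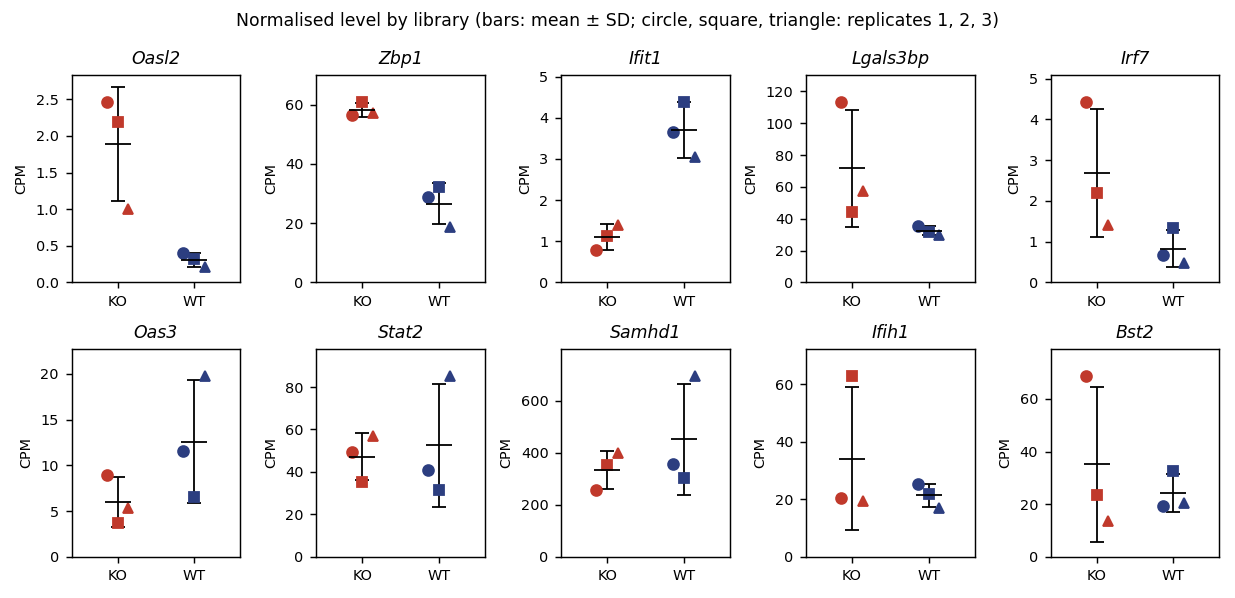
CPM of 10 genes in each library, KO left and WT right, with mean ± SD bars; circles, squares and triangles are replicates 1, 2 and 3. KO points lie above WT points for Oasl2, Zbp1, Lgals3bp and Irf7 and below for Ifit1, while WT replicate 3 is the highest point for Oas3, Stat2 and Samhd1, KO replicate 2 for Ifih1 and KO replicate 1 for Bst2.

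The IFIT family, whose proteins bind foreign RNA and hinder its translation, had both tested members below 0. Of all genes tested, 51.6% were above 0. Ifit1, which binds RNA with an unmethylated cap or a triphosphate end, had 17, 15 and 14 counts in KO replicates 1, 2 and 3, against 81, 112 and 85 counts in WT replicates 1, 2 and 3. That was 0.777, 1.13 and 1.40 CPM in KO and 3.66, 4.39 and 3.05 CPM in WT. Each KO library was under every WT library. The log2 fold change was -1.76 (SE 0.43, 95% interval -2.74 to -0.79, edgeR adjusted p = 0.371) and ran from -1.98 to -1.55 with 1 library left out. This was the largest negative value among the 37 genes. Reads of Ifit1 may be shared with Ifit1bl1, which overlaps it in the GRCm38 annotation.

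Ifit2 was at 11.8, 26.2 and 28.1 CPM in KO and at 32.1, 34.9 and 18.8 CPM in WT (log2 fold change -0.38, SE 0.39). Its lowest value was in KO replicate 1, and without that library the difference was -0.08. Ifit3 was too low to test, with 9, 9 and 4 counts in KO and 3, 11 and 5 counts in WT. Ifit2 and Ifit3 lie next to each other on the chromosome of Ifit1. Ifit1 and Ifit3 each hold ISRE matches near their start, and their sites are given here because Ifit1 alone of the family differed without overlap. Capitals mark the ISRE letters searched: GAAA, any 2 bases and GAAA, or the same on the other strand, where they read TTTC, any 2 bases and TTTC.
Ifit1 (chr19:34640773-34640825, plus strand): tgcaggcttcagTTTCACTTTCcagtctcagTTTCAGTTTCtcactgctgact
Ifit3 (chr19:34583361-34583394, plus strand): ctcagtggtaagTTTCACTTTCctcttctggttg
Ifit3 (chr19:34583395-34583428, plus strand): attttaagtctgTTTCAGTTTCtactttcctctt
The sequences are RefSeq promoters of GRCm38.p6, a later build than that of the read alignment. In Ifit1 the matches begin 104 and 85 bases before the start of transcription, and in Ifit3 156 and 122 bases before it.

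The OAS family makes short oligoadenylates that activate RNase L, and its members differed in direction. Oasl2, an OAS-like protein, had 54, 29 and 10 counts in KO replicates 1, 2 and 3, against 9, 8 and 6 counts in WT replicates 1, 2 and 3. That was 2.47, 2.19 and 1.0 CPM in KO and 0.407, 0.314 and 0.215 CPM in WT. Every KO value was more than the highest WT value, at levels where few reads stand behind each. The log2 fold change of +2.60 (SE 0.55, 95% interval 1.34 to 3.86, edgeR adjusted p = 0.331) was the largest of the 37 genes, and it ran from +2.36 to +2.87 with 1 library left out. Oas1a, an oligoadenylate synthetase, was at 2.97, 0.755 and 0.702 CPM in KO and at 0.452, 0.392 and 0.215 CPM in WT. KO replicate 1 was far above the other KO libraries, and the log2 fold change of +2.10 (SE 0.70) was +1.05 without it. Oas1a neighbours the closely related Oas1g, so its counts are uncertain. Both Oasl2 and Oas1a were tested only because of their KO levels, since 0 WT libraries reached the cutoff of the filter for either gene.

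Oas3, the largest synthetase, was at 8.96, 3.70 and 5.31 CPM in KO and at 11.5, 6.51 and 19.8 CPM in WT (log2 fold change -1.06, SE 0.49, edgeR adjusted p = 0.663). The groups overlapped, since KO replicate 1 exceeded WT replicate 2. Without the library labelled WT replicate 3 the difference was -0.60, and without KO replicate 1 it was -1.49. Oas2 had 5 counts at most in any library. Oasl1, a relative without synthetase activity, had 9, 3 and 1 counts in KO and 17, 3 and 26 counts in WT. The sites of Oas1a and Oas3, shown as 2 family members on either side of 0, both hold an ISRE match, and the Oasl2 window holds none.
Oas1a (chr5:120907518-120907557, minus strand): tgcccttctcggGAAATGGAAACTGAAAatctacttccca
Oas3 (chr5:120777713-120777746, minus strand): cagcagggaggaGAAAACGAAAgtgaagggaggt
In Oas1a, overlapping matches begin 20 bases before the start, and in Oas3 a single match begins 75 bases before it.

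Among the 6 tested sensors of foreign or misplaced nucleic acid, Zbp1 alone had KO and WT libraries that did not overlap. Of all genes tested, 15.7% did not overlap. Zbp1, which binds left-handed RNA and DNA and can trigger necroptosis, was at 56.7, 61.1 and 57.3 CPM in KO replicates 1, 2 and 3, against 29.0, 32.2 and 18.7 CPM in WT replicates 1, 2 and 3. The KO libraries were close together and all clearly above the highest WT library. The log2 fold change was +1.13 (SE 0.26, 95% interval 0.53 to 1.73, edgeR adjusted p = 0.364), and ran from +0.92 to +1.29 with 1 library left out. With KO replicate 1 and WT replicate 3 both left out it was +0.97 and passed edgeR's threshold (adjusted p = 0.0427). In that setting 80 of all 11549 genes tested passed. With 1 library left out, Zbp1 did not pass, and its edgeR adjusted p ran from 0.227 to 0.999. Zbp1 was at 41.9 ± 3.85 FPKM in KO and 19.6 ± 5.97 FPKM in WT, so it ranked 6 of 43 in KO and 9 of 43 in WT by level.

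Ifih1, the RNA sensor MDA5, was at 20.4, 62.9 and 19.3 CPM in KO and at 25.2, 21.9 and 17.1 CPM in WT. KO replicate 2 was the only library above 26 CPM, and the log2 fold change of +0.68 (SE 0.47) was -0.11 without it. Ddx58, the RNA sensor RIG-I, was at 16.5, 26.2 and 26.8 CPM in KO and at 22.1, 16 and 29.6 CPM in WT (+0.03, SE 0.33). Dhx58, the related protein LGP2, was at 4.21, 1.36 and 1.40 CPM in KO and at 1.63, 1.73 and 7.28 CPM in WT. A single high library in each group set its value: the log2 fold change of -0.58 (SE 0.72) was -1.36 without KO replicate 1 and +0.47 without WT replicate 3.

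Eif2ak2, the kinase PKR that halts translation on binding double-stranded RNA, was at 32.1, 76.9 and 85.7 CPM in KO and at 68.6, 56.8 and 73.0 CPM in WT. KO replicate 1 was low and the other KO libraries were above the WT range, so the log2 fold change of -0.03 (SE 0.36) was +0.30 without KO replicate 1. Adar, which edits adenosine to inosine in double-stranded RNA, was at 152, 98.0 and 88.3 CPM in KO and at 69.8, 92.7 and 69.9 CPM in WT (+0.54, SE 0.27). KO replicate 3 and WT replicate 2 overlapped, and without KO replicate 1 the difference was +0.27. Ifi204, a DNA sensor of the interferon-inducible p200 family, was too low to test, with 14 counts at most in any library.

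**Figure D4:**
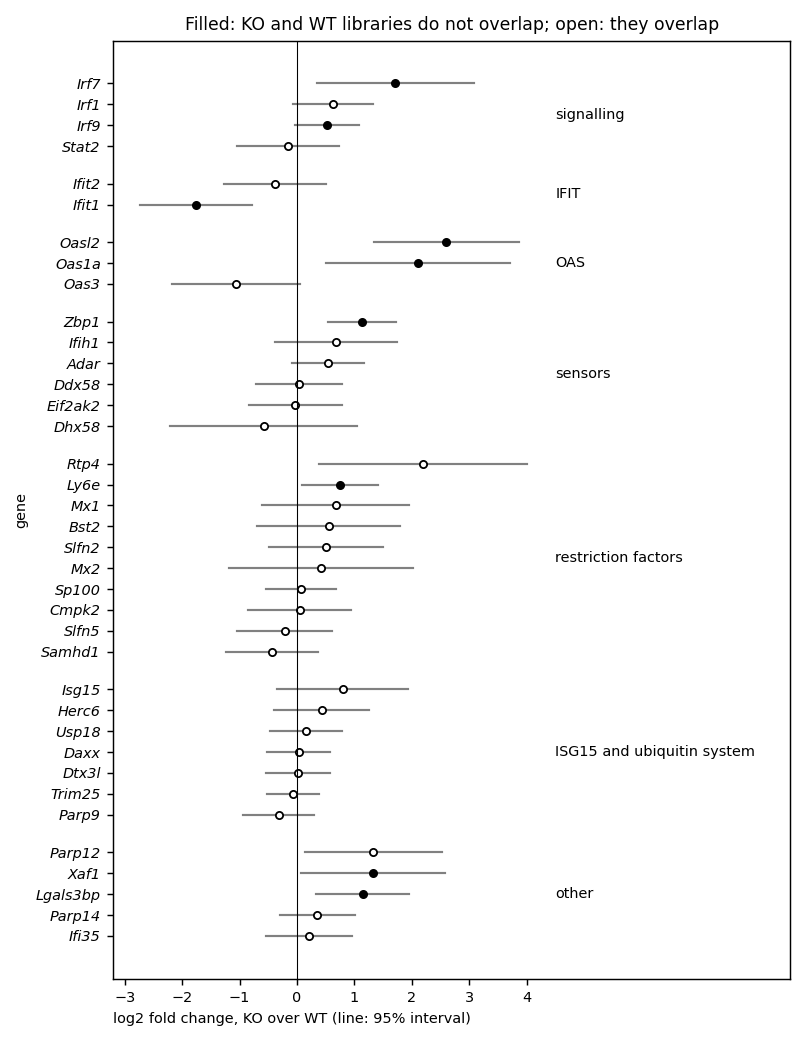
Log2 fold change (KO over WT) of the 37 tested genes with its 95% interval, grouped by role. Filled points are genes whose KO and WT libraries do not overlap: 8 lie above 0, Oasl2 the highest, and Ifit1 lies below 0.

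Restriction factors act on steps of viral replication. Of 10 tested, 8 were above 0 (51.6% of all genes tested were), with a median of +0.46. Only 1, Ly6e, had no overlap, beside 15.7% of all genes tested. Of the 8, the values of Bst2, Mx2, Sp100 and Cmpk2 changed sign with 1 library left out. Ly6e, the most abundant member, was at 709, 417 and 359 CPM in KO replicates 1, 2 and 3, against 291, 281 and 312 CPM in WT replicates 1, 2 and 3. The groups did not overlap, and the log2 fold change of +0.75 (SE 0.29, edgeR adjusted p = 0.651) was +0.40 without KO replicate 1. Rtp4, a receptor transporter that inhibits some RNA viruses, was at 2.70, 2.64 and 0.501 CPM in KO and at 0.316, 0.824 and 0.143 CPM in WT (+2.20, SE 0.79). KO replicate 3 lay inside the WT range, and the difference was +3.09 without WT replicate 2. Rtp4 reached the cutoff of the filter in only 1 WT library, so it was tested because of its KO levels.

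Samhd1, which degrades deoxynucleotides, was at 255, 354 and 397 CPM in KO and at 358, 302 and 695 CPM in WT. The library labelled WT replicate 3 was well above the other 5, and the log2 fold change of -0.43 (SE 0.35) was +0.02 without it. Bst2, the tetherin that holds budding virus at the membrane, was at 68.8, 23.4 and 13.5 CPM in KO and at 19.3, 32.5 and 20.6 CPM in WT. The highest and the lowest value were both in KO, and the log2 fold change of +0.55 (SE 0.55) was -0.38 without KO replicate 1. Slfn2, which keeps mouse T cells quiescent, was at 241, 308 and 151 CPM in KO and at 176, 244 and 73.6 CPM in WT (+0.50, SE 0.44, and +0.14 without WT replicate 3).

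Mx1, a dynamin-like GTPase that is defective in many laboratory mouse strains, was at 0.594, 0.679 and 1.5 CPM in KO and at 0.587, 0.706 and 0.395 CPM in WT (log2 fold change +0.67, SE 0.56). The single higher value was in KO replicate 3, and without it the difference was +0.15. Rsad2, the enzyme viperin, was too low to test, with 7, 0 and 1 counts in KO and 1, 3 and 10 counts in WT. Cmpk2, its neighbour on the chromosome and a mitochondrial nucleotide kinase, was level (+0.05, SE 0.40), at 1.6 to 2.19 CPM in KO and 1.65 to 1.94 CPM in WT. Mx2 (+0.42), the nuclear body protein Sp100 (+0.06) and Slfn5 (-0.21) also overlapped between the groups.

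In the ISG15 and ubiquitin system, KO and WT libraries overlapped for all 7 genes, 5 were above 0, and the median log2 fold change was +0.03. Of all genes tested, 15.7% did not overlap and 51.6% were above 0. Isg15 was at 4.39, 2.57 and 1.30 CPM in KO replicates 1, 2 and 3, against 1.58, 1.41 and 1.83 CPM in WT replicates 1, 2 and 3. The KO libraries lay on both sides of the WT range, and the log2 fold change of +0.79 (SE 0.50) was +0.28 without KO replicate 1. Usp18, which removes Isg15 from proteins and blocks the type I interferon receptor, was at 21.1, 15.0 and 21.7 CPM in KO and at 18.1, 18.4 and 15.5 CPM in WT (+0.15, SE 0.27, 95% interval -0.47 to 0.78, and 0.04 to 0.30 with 1 library left out). Herc6, a ligase that attaches Isg15 in mice, was at 8.64, 18.8 and 19.3 CPM in KO and at 13.0, 11.5 and 10.1 CPM in WT (+0.43, SE 0.36, and +0.73 without KO replicate 1). KO replicate 1 was thus the lowest of the 6 libraries and the other KO libraries the highest.

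Trim25, a ubiquitin ligase that acts on RIG-I, varied little, at 119 to 121 CPM in KO and 118 to 132 CPM in WT (log2 fold change -0.07, SE 0.20, 95% interval -0.53 to 0.38). Parp9 and Dtx3l, which form a complex of an ADP-ribosyltransferase and a ubiquitin ligase, are neighbours that overlap in the GRCm38 annotation. Parp9 stood at -0.32 (SE 0.27) and Dtx3l at +0.02 (SE 0.24), both lowest in KO replicate 1, and without that library Parp9 stood at -0.11. Daxx, a histone chaperone of nuclear bodies, stood at +0.03 (SE 0.24). Among other genes of Isg15 conjugation, the activating enzyme Uba7 was at 24.7, 13.4 and 9.83 CPM in KO and at 5.42, 8.67 and 7.79 CPM in WT. The conjugating enzyme Ube2l6 was at 21.3, 13.7 and 12.5 CPM in KO and at 8.72, 9.49 and 4.95 CPM in WT. Both were picked for a small unadjusted p from a second list of interferon-stimulated genes. Each was higher in KO without overlap, as were 7.48% of all genes tested, and neither passed (log2 fold change +1.13 and +1.04, edgeR adjusted p = 0.618 and 0.616).

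The remaining members, 5 of them tested, included 2 further genes without overlap, beside 15.7% of all genes tested. Lgals3bp, a secreted glycoprotein that binds galectins, was at 114, 44.2 and 57.2 CPM in KO and at 35.4, 32.0 and 29.9 CPM in WT. All KO libraries were above WT, KO replicate 1 by far the most, and the log2 fold change of +1.14 (SE 0.35, edgeR adjusted p = 0.529) was +0.64 without it. Xaf1, a pro-apoptotic protein that counters the caspase inhibitor XIAP, was at 1.42, 1.36 and 3.91 CPM in KO and at 1.08, 0.824 and 0.718 CPM in WT (+1.32, SE 0.55). Here KO replicate 3 was the highest, and the difference was +0.64 without it.

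Parp12, an ADP-ribosyltransferase, was at 5.71, 4.53 and 2.01 CPM in KO and at 1.36, 2.47 and 1.08 CPM in WT (log2 fold change +1.33, SE 0.52). KO replicate 3 lay below WT replicate 2. Parp14, an enzyme of the same family beside Dtx3l on the chromosome, was at 117, 207 and 213 CPM in KO and at 155, 149 and 115 CPM in WT (+0.36, SE 0.29, and +0.59 without KO replicate 1). Ifi35 stood at +0.21 (SE 0.33) and at -0.17 without KO replicate 1. Ifi44 had 2 counts at most in any library.

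**Figure D5:**
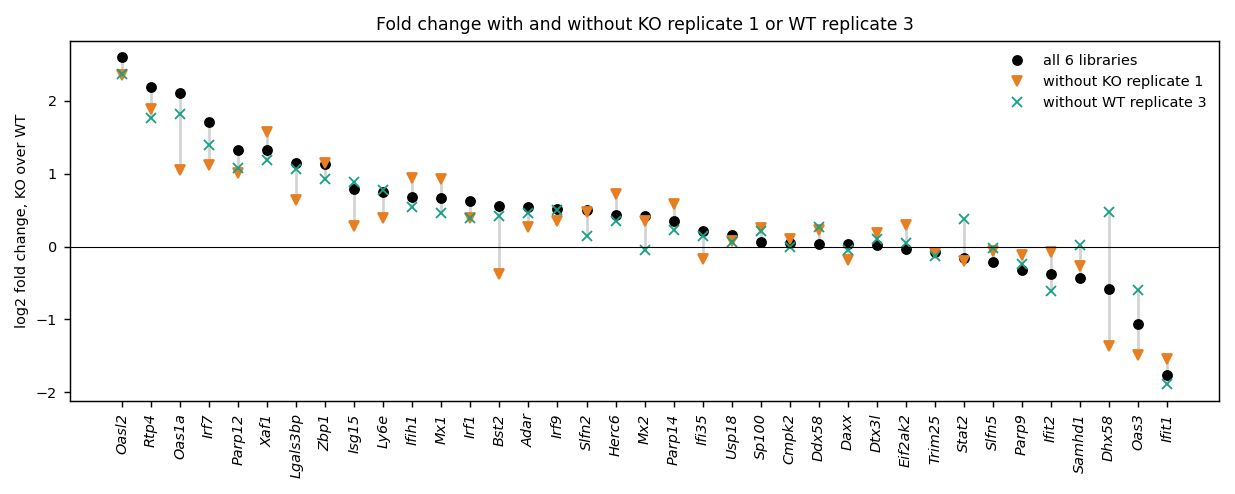
Log2 fold change (KO over WT) of the 37 tested genes with all 6 libraries (circles), without KO replicate 1 (triangles) and without the library labelled WT replicate 3 (crosses). Most genes keep their sign in all 3, Zbp1, Oasl2 and Ifit1 among them. Among those that do not, Bst2 lies below 0 without KO replicate 1, and Dhx58 and Stat2 lie above 0 without WT replicate 3.

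The ISRE letters were searched on both strands from 250 bases before to 50 bases after each RefSeq start. Promoters were at hand for 32 of the 43 genes, and 12 of these (37.5%) held a match, beside 3.99% of all 27025 genes with a promoter. The letters TTCNNNGAA of the interferon gamma-activated site (GAS) were in 8 of the 32 (25.0%), beside 9.55% of all genes. A match is a run of letters and not a shown binding site. Of the 10 tested genes with an ISRE match, 5 were above 0 and 5 below, with a median log2 fold change of 0.00. Of the 18 tested genes whose promoter held none, 15 were above 0, with a median of +0.47. Of the 9 tested genes without a promoter at hand, whose matches are unknown, 7 were above 0, with a median of +0.42. These are descriptions without a test. Isg15 and Bst2, in which matches overlap, and Stat2, a member of the complex that binds such sites, are given beside the Ifit and Oas sites because their KO and WT values overlapped.
Isg15 (chr4:156200863-156200908, minus strand): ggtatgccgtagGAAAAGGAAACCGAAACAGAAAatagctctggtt
Bst2 (chr8:71537575-71537614, minus strand): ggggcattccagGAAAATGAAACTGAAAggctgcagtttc
Stat2 (chr10:128270264-128270297, plus strand): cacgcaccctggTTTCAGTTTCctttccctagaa
Isg15 and Bst2 thus hold overlapping matches that begin 78 and 130 bases before the start, and the single match in Stat2 begins 222 bases before it. No promoter was at hand for Zbp1, Usp18, Mx1, Mx2, Oas2, Dhx58, Parp9, Parp14, Rtp4, Ly6e and Ifi204.

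Beyond the 43 genes, 54 other interferon-stimulated genes from a second list were found, and 48 were tested. None passed edgeR's threshold, with 7 higher and 0 lower at an unadjusted p under 0.05, beside 4.75% and 2.76% of all genes tested. The median log2 fold change was +0.30, and 38 were above 0 (79.2%, beside 51.6% of all genes tested). Of the 48, 8 were higher and 1 was lower in KO without overlap, beside 7.48% and 8.18% of all genes tested. Trim12c, the 1 lower, was at 14.9, 29.6 and 31.2 CPM in KO and at 36.6, 37.2 and 53.2 CPM in WT (-0.75, SE 0.33, edgeR adjusted p = 0.662). Apol9b, an apolipoprotein L gene with a near-identical copy and so of uncertain count, was at 6.90, 5.81 and 1.5 CPM in KO and at 0.678, 0.981 and 0.287 CPM in WT (+2.88, SE 0.68, edgeR adjusted p = 0.371). Isg20, an RNA exonuclease, was at 10.3, 6.79 and 4.71 CPM in KO and at 1.72, 3.30 and 2.26 CPM in WT (+1.59, SE 0.43, edgeR adjusted p = 0.456). In both genes all KO libraries were above all WT libraries, and KO replicate 1 was the highest.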

How the data were processed

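Titles put the 6 libraries into KO and WT, and the design text gives 3 mice each. Per gene symbol, the authors deposited raw whole-number counts and, in another table, FPKM values (per length and depth). STAR 2.4.2a aligned the reads of 75 bases, per the file headers and the design text. The submitters' processing notes give mm9 as the build. A stranded kit and the VIPER pipeline were used, per the design text. What counted the reads, and with which strand setting and annotation, is not given in the sources used here; overlapping and antisense genes therefore share uncertain counts. A date stands for the symbol in 26 entries (0.271% of counts), which were kept in library sizes.

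The test was the quasi-likelihood F test of edgeR 4.0.16 (R 4.3.3) with TMM, filterByExpr at a minimum of 10 counts, and Benjamini-Hochberg adjustment over all genes tested at 0.05, checked on simulated data. Standard errors come from the F statistic, and 95% intervals use its degrees of freedom. Alternatives were other scalings, filters of none or 1 CPM in 3 libraries, DESeq2 1.42.0, limma 3.58.1 (voom, or log2(FPKM + 1) and log2(FPKM + 0.1) after a filter of 1 FPKM in 3 libraries, and log2(FPKM + 1) unfiltered), a replicate block, each library left out, and 2 against 2 libraries (without KO replicate 1 and WT replicate 3). Before normalization, 3 counts equal 0.147 to 0.295 CPM in KO and 0.109 to 0.129 CPM in WT. All pairs of libraries differed beyond sampling noise (chi-square per degree of freedom 22.05 to 374.5).

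The members and lists were chosen with earlier results of these data known. Values per library are given by rule for the 20 tested members with the smallest p and for members fixed by role. Those of Bst2, Slfn2, Oasl1 and Trim25, of Ikbke, Irf5 and Trim12c, and of Rpl26 and the cell markers named were chosen after their values were seen, as were the promoters printed. Nonmembers come from lists fixed by role, with the 4 other interferon-stimulated genes of smallest p. Some genes of these lists are not reported here.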

Additional observations from a re-analysis of the deposited data

How the results depend on the processing

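Counting error limits genes with few reads, such as Oasl2, Ifit1 and Oas1a. Of the 37 tested genes, 23 kept their sign under every one of the up to 19 alternatives that gave them a value. The stricter filters dropped low genes: 26 had a value in all 19, and Mx2 had one in 15. No setting but DESeq2 (3 members) and 2 against 2 libraries (1 member) called a member. The number of genes called among all tested, 2, was 6 without a filter, 122 with DESeq2, 1 with limma voom, 80 with 2 against 2 libraries, 0 with log2(FPKM + 1) without a filter, 0 with sex as a covariate (an alternative chosen after seeing the data), and 0 to 3 with 1 library left out. Members above 0 were 17 of 26 in both filtered FPKM fits. The members' median of +0.42 was 0.17 at 1 CPM in 3 libraries, 0.32 with voom, 0.16 and 0.17 in the filtered fits of log2(FPKM + 1) and log2(FPKM + 0.1), 0.15 in the unfiltered one, and 0.22 to 0.43 with 1 library left out. Deviations from the group mean correlated at r = -0.40, 0.12 and 0.13 between same-numbered KO and WT libraries. Between differently numbered ones r ran from -0.41 to 0.37. With 3 libraries per group, and KO replicate 1 apart from the rest, these values cannot tell whether the numbers pair the libraries. Replicate 2 was male in both groups by Xist (1.51 CPM in KO and 0.118 CPM in WT, against 233 to 1079 CPM in the other libraries) and Ddx3y. With the replicate number as a block, 1 gene and 0 members were called, the median was 0.32 and Dtx3l stood at -0.0051.

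Values that changed sign were as follows, and the cause was not tested. With 2 against 2 libraries Stat2 stood at 0.37, Bst2 at -0.46, Ifi35 at -0.20, Samhd1 at 0.21, Eif2ak2 at 0.40, Slfn5 at 0.16 and Daxx at -0.22. Eif2ak2 was at 0.0023 with library size scaling, Dtx3l at -0.0063 and Daxx at -0.0092 without a filter, and Dtx3l at -0.0033 with voom. Sp100 was at -0.012 in the FPKM fits and Cmpk2 at -0.0017 in the unfiltered one. With 1 library left out, values ran from -0.0512 to 0.71 for Mx2, -0.43 to 0.37 for Stat2, -0.38 to 0.90 for Bst2, -0.17 to 0.37 for Ifi35, -0.11 to 0.96 for Ifih1, -0.16 to 0.28 for Ddx58, -1.36 to 0.47 for Dhx58, -0.14 to 0.19 for Dtx3l, -0.66 to 0.0197 for Samhd1, -0.29 to 0.30 for Eif2ak2, -0.12 to 0.25 for Sp100, -0.11 to 0.11 for Cmpk2 and -0.18 to 0.15 for Daxx.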
